A study of Rattus norvegicus with 8 samples.

Results

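The transcripts of normal, untreated tibialis anterior muscle were measured in 4 adult Sprague-Dawley rats, with 1 Affymetrix expression array per rat. These are the 4 arrays whose labels name this muscle and the control group, out of 8 arrays in the study. The other 4 rats were made hyperthyroid over 6 weeks with triiodothyronine, given into the peritoneum every 2 days (25 µg for each 100 g of rat), and no treatment comparison is made here. Rats of either group weighed 200 ± 40 g at the start, and each group held 3 males and 1 female. The controls are labelled as untreated, with no vehicle injection named, and carry replicate numbers 7, 8, 9 and 11. Values by array are given in that order throughout.

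Tibialis anterior lifts the foot and is one of the fast muscles of the rat hind limb. A limb muscle fibre is called slow or fast by the myosin heavy chain it makes, and each fibre type carries its own set of myosin light chains, troponins, calcium pumps and calcium buffers. Slow fibres depend mostly on oxidative metabolism, while the fastest fibres draw on glycogen, glycolysis and phosphocreatine. Besides fibres, a piece of muscle holds nerve, vessels, connective tissue, fat and immune cells, whose RNA enters the same extract.

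Each array gave 31099 intensities, in arbitrary units, whose mean without the highest and lowest 2% was 150 on every array. Array medians ran from 43.5 on replicate 8 to 54.9 on replicate 11. On the log2 scale these medians lay 0.12 below and 0.19 above the mean of the 4 array medians, so differences of that size between arrays depend on the scaling. Spearman's correlation between arrays over probe sets was 0.777 for replicates 9 and 11 and 0.818 for replicates 7 and 8, with the other 4 pairs between. The 3′ over 5′ ratio of the GAPDH control probe sets was 1.33 to 1.46, and that of beta-actin ran from 1.48 on replicate 9 to 2.16 on replicate 11. The labels do not say which rat was the female. Xist, the RNA that silences an X chromosome in female cells, read 2.89, 4.70, 3.21 and 1856. The Y-linked Eif2s3y read 611, 602, 355 and 19.5, so that for these genes 1 array, replicate 11, had the female pattern. The other Y-linked genes kept did not share the order of Eif2s3y. Of 4 kept sex-linked genes, 1 was lowest on replicate 11 (27% of all kept genes) and 2 on replicate 9 (28.2%). On replicate 11, 2 were highest (30.6%), Xist and 1 Y-linked gene. Anything that sets replicate 11 apart cannot be told apart from the sex of that rat. No test between groups was possible, because there was 1 group, and every spread below is a standard deviation (SD) over 4 rats.

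One-symbol probe sets, those that the platform annotation gives a single gene symbol, were ranked by mean intensity, and each of 14217 genes was represented by its brightest one. Genes of the contractile apparatus, of energy supply and of mitochondrial respiration filled the top of that order. The 20 brightest genes were the mitochondrially encoded cytochrome oxidase subunits COX2 and COX1, then Acta1, Aldoa, Ckm, Myl1, Tpm1, Tnnc2, Tnni2, Tnnt3, Myl11, Atp2a1, Slc25a4, Eno3, Actn3, Ckmt2, Myh4, Rps29, Tcap and Atp5f1e. COX2 stood at 62611, 70009, 73264 and 83724, and Acta1, skeletal muscle actin, at 57425, 56929, 62558 and 72468. The 20th gene, Atp5f1e, had a mean of 27717 and the next, the glycolytic enzyme gene Tpi1, 27463, so the end of this list separates no distinct group. Brightness also depends on how well each probe set binds its target, so ranks of different genes describe signal and not molecules.

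Signal was concentrated in few transcripts. The 10 brightest one-symbol probe sets held 7.38 ± 0.591% of all signal (SD, n = 4), the 100 brightest 29.1 ± 0.887% and the 1000 brightest 64.6 ± 0.524%. Of those 100 probe sets, 71 belonged to the gene lists described here. Respiratory chain complexes III to V gave 22 of them, fast-fibre contractile genes 12, common sarcomere genes 8, glycolysis 8, creatine and adenylate shuttles 6, and complex I 5. The slow-fibre contractile list gave 1, which was Mybpc1.

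**Figure D1:**
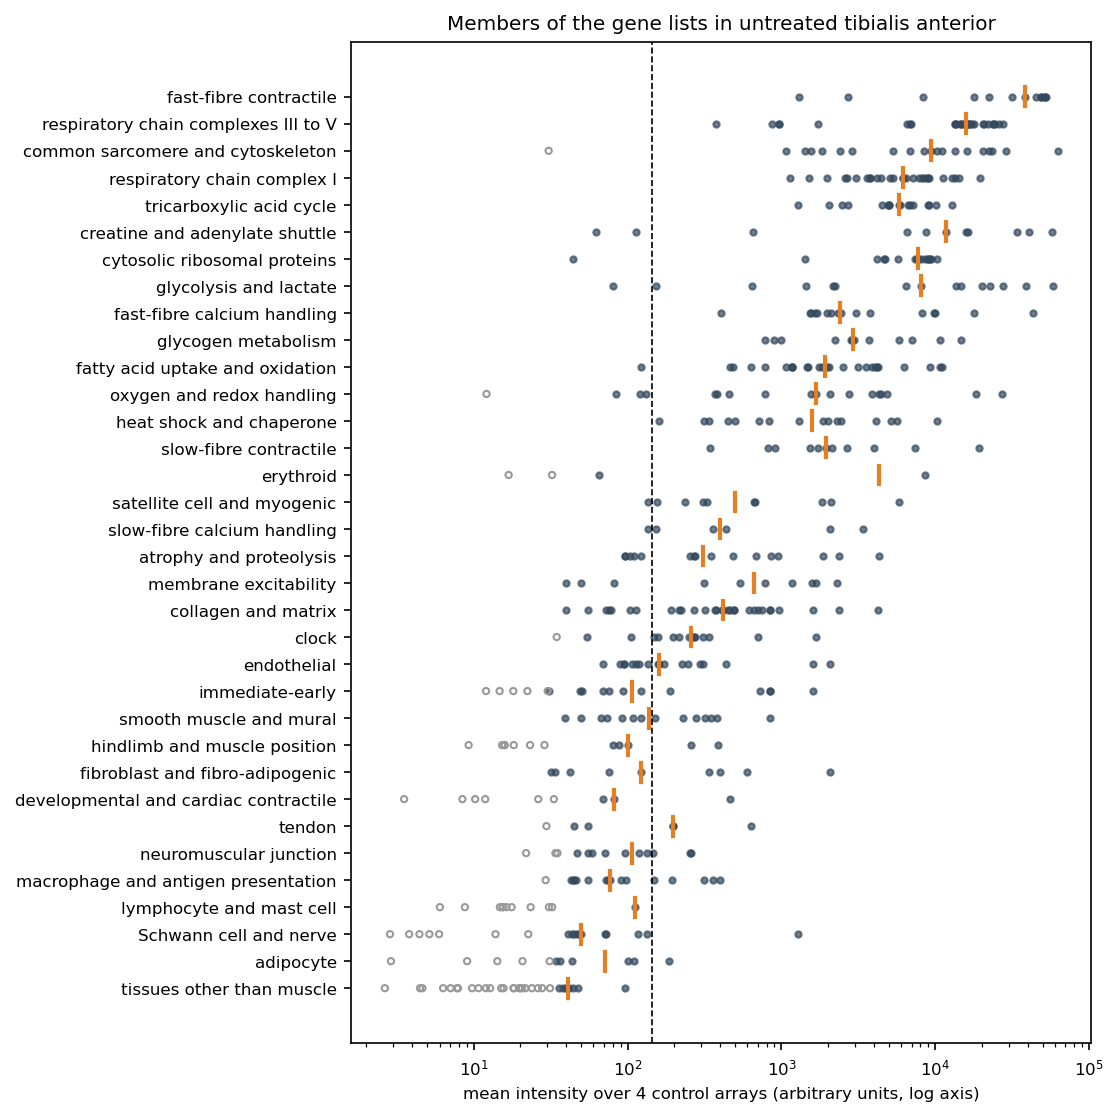
Mean intensity over the 4 control arrays (log axis, arbitrary units) of every measured member of 34 gene lists, 1 point per gene. Filled points are kept genes, open circles are genes under the level filter, orange bars mark the median of the kept members, and the dashed line is the median of all kept genes, 144; fast contractile and respiratory genes lie far to its right and Schwann cell and adipocyte genes mostly to its left.

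The fast contractile list was bright, and the brightest probe sets of its genes differed little between the 4 rats. Myh2, the heavy chain of fast oxidative IIa fibres, was placed in the common sarcomere list. Its log2 SD of 0.79 was wider than that of any gene of the fast list. All 13 genes of the list passed the level filter, which kept the 10192 genes with a mean intensity of roughly 25.1 or more. Their mean log2 level was 14.37, with an SD of 0.13 between arrays, and 10 of the 13 were among the 100 brightest probe sets. Single genes varied by a log2 SD of 0.11 to 0.56, against a median of 0.37 over all kept genes. The 13 other kept probe sets of 6 of these genes had log2 SDs from 0.11 to 1.12, and saturation of the brightest probe sets was not tested. Myh4, the IIb heavy chain of the fastest fibres, read 28843, 36144, 33269 and 26855. Myh1, the IIx heavy chain, read 10388, 8156, 6444 and 8351. The log2 SD was 0.19 for Myh4 and 0.28 for Myh1, and these 2 myosins had different highest and lowest arrays.

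The fast thin-filament regulators were as even. Tnnc2, the calcium-binding subunit of fast troponin, had intensities of 45440, 52047, 50330 and 53998. Tnni2, the inhibitory subunit, read 43491, 45943, 50484 and 54727, and Tnnt3, the tropomyosin-binding subunit, 43309, 50594, 50161 and 50308. Replicate 7 was the lowest array for all 3 troponins. It was the lowest for 8 of the 13 members of the fast contractile list. Of all kept genes 22.9% were lowest on that array, and 28.1% of those in the top of 10 equal bins by level. The light chains Myl1 and Myl11 followed the same order at the low end, with 46033 and 40079 on replicate 7. Actn3, the alpha-actinin found in fast fibres, read 31135, 41025, 47719 and 33886. Myoz1, a Z-disc protein of fast fibres, read 15589, 19656, 20962 and 14709, and was named after its values were seen. For these last genes replicates 8 and 9 were above the other 2 arrays, within a narrow range.

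Components shared by all fibres were mostly even between rats. The 19 kept members of the common sarcomere and cytoskeleton list had a mean log2 level of 12.83 with an SD of 0.16, which was 0.068 without replicate 7 and 0.104 without replicate 8. Tcap, the cap of titin at the Z-disc, read 31938, 30862, 32520 and 19898, and Ttn, titin itself, 21199, 24421, 22776 and 13248, so replicate 11 was lowest for both. Tpm2, a tropomyosin, read 25154, 21777, 19661 and 22763. Myh2, the heavy chain of fast oxidative IIa fibres, which was placed in this list, read 35301, 16582, 10967 and 30700. Its log2 SD was 0.79, and replicates 7 and 11 were above replicates 8 and 9. The only wider member was Lmod2, a leiomodin of the thin filament, which was chosen after its values were seen and read 2265, 603, 372 and 1040, with an SD of 1.11. Probe sets of the adult myosin heavy chains target closely related sequences, and cross-hybridization between them was not tested.

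The slow-fibre programme differed widely between the rats. All 11 kept members of the slow contractile list were highest on replicate 7, where 23% of all kept genes were highest. In 10 of the 11 both replicates 7 and 11 were above replicates 8 and 9, a pattern seen in 22.4% of kept genes. The list held 1.02, 0.35, 0.33 and 0.67% of the signal. The mean deviation of its members from their own 4-array means was 1.89, -1.60, -1.38 and 1.09 log2 units, so replicate 7 and replicate 8 were 3.49 log2 units apart. The mean log2 level was 10.21 with an SD of 1.75, and with each array left out in turn that SD ran from 1.49 to 1.96. In bulk RNA fewer slow fibres and less slow-fibre RNA per fibre cannot be told apart.

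Promoter sequences are shown for 3 of these slow genes. They are those of widest log2 SD in these data whose RefSeq start matches their gene record. Each is the 250 bases before the start of the gene in GRCr8, on the strand of the gene, 5′ to 3′. Tnnt1 lies at chr1:78348785-78349034 on the plus strand, Tnni1 at chr13:49781279-49781528 on the plus strand, and Myoz2 at chr2:213852779-213853028 on the minus strand. Capitals mark matches on either strand to the E-box CANNTG, the site type bound by myogenic factors of the MyoD family, or to the TATA motif TATAAA.
Tnnt1: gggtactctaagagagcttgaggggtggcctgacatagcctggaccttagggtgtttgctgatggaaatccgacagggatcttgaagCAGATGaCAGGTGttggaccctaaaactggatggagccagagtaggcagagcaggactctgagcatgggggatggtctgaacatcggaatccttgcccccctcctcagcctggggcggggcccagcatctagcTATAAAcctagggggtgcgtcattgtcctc
Tnni1: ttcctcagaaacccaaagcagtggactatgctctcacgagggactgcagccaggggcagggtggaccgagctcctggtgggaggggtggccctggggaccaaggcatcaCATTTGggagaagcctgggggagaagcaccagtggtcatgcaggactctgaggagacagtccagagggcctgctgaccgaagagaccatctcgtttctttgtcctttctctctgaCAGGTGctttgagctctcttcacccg
Myoz2: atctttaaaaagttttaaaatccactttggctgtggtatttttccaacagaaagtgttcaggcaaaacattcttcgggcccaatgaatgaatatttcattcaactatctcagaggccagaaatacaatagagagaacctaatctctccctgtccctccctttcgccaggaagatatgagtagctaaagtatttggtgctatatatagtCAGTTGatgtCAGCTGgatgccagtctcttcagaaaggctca
Each window held 2 E-boxes, which 65.5% of the 33469 RefSeq windows of this length hold at least once. Tnnt1 also held 1 TATA motif, present in 12.9% of windows. The MCAT motif CATTCC, present in 12.1%, and a MEF2 core TAAAAATA, present in 2.44%, were searched on both strands and were not matched in these 3 windows. Overlapping matches were counted, and a match is a description of letters only.

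The slow thick-filament genes showed the range most clearly. Myh7, the slow and cardiac beta heavy chain, read 5570, 56.0, 163 and 2692. Its log2 SD was 3.14, and 2.01 when the probe sets of the gene were averaged. Its values on replicates 8 and 9 lie within the range of the genes of other tissues, whose highest single value was 172. Myl2, the slow regulatory light chain, read 8176, 965, 384 and 6377, and Myl3, the slow essential light chain, 13262, 3306, 1996 and 10893. In each of the 3 genes, the 2 high arrays were replicates 7 and 11. Mybpc1, slow myosin-binding protein C, is a member of the list by name and read 21995, 20116, 19306 and 15496. Its log2 SD was 0.21 and replicate 11 was its lowest array, unlike the rest of the list.

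On the thin filament all 3 slow troponin subunits moved as a set. Tnnt1, slow troponin T, read 2284, 7.16, 86.9 and 904. Its log2 SD of 3.47 rests on a replicate 8 value under the filter intensity of 25.1, and was 3.09 with a pseudocount of 13.2, 3.72 with a floor in its place, and 2.40 without replicate 8. Tnni1, slow troponin I, read 4458, 278, 204 and 2850, and Tnnc1, the slow and cardiac troponin C, 3557, 131, 218 and 2226. Their promoters, where shown above, share no motif of the 4 searched beyond the E-box. The Z-disc gene Myoz2 read 6430, 599, 270 and 3289. Csrp3, a muscle LIM protein, read 4812, 517, 508 and 1101, and Ankrd2, a stretch-responsive ankyrin-repeat protein, 727, 102, 119 and 418. Both were named after their values were seen. Tpm3, slow tropomyosin, was chosen likewise and read 1050, 598, 978 and 1004, where only replicate 8 stood low.

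Other probe sets of the same genes agreed in part. Of 13 kept probe sets for 4 slow contractile genes that were not the brightest of their gene, 6 were highest on the same array as the brightest one (46.2%), against 35.7% of 3545 such probe sets over all kept genes. Most of the 13 were probe sets of Tpm3, with mean intensities of 34.0 to 234, so this share describes mainly that gene. The other probe set of Tnni1 read 3724, 247, 133 and 2682. That of Myh7 read 191, 56.2, 47.2 and 127, and that of Myl2 54.7, 36.3, 86.8 and 41.4, highest on replicate 9. Levels of slow genes differed far more than those of their fast counterparts measured in the same extracts, as the log2 SD of 2.26 for Tnni1 beside 0.15 for Tnni2 shows.

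**Figure D2:**
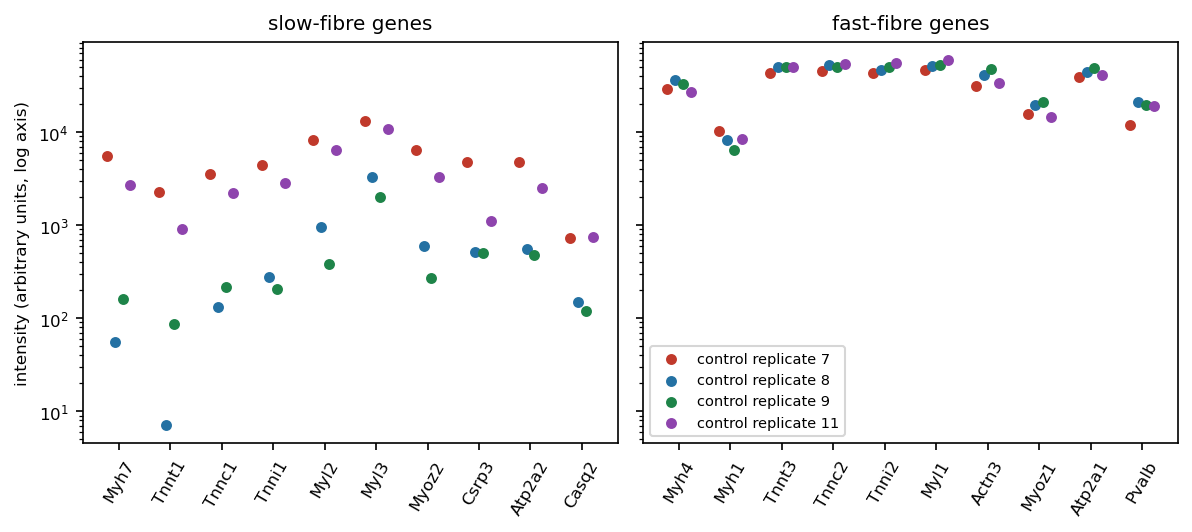
Intensity on each control array (log axis, arbitrary units) of 10 slow-fibre genes (left) and 10 fast-fibre genes (right), 1 coloured point per rat. The slow genes drawn are high on replicates 7 and 11 and low on 8 and 9, with Myh7 between 56.0 and 5570, while each fast gene drawn stays within a narrow band. The genes were picked from the lists. Mybpc1, Tpm3, Pln and Ppp3ca, which did not split that way, are not drawn. Nor is the gene of widest spread in the fast contractile list, with a log2 SD of 0.56. Myh2, the IIa heavy chain, was placed in another list and is not drawn. Its log2 SD was 0.79, with replicates 7 and 11 above 8 and 9.

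Calcium handling split in the same way. Fast fibres return calcium to the sarcoplasmic reticulum with the pump SERCA1, and Atp2a1, its gene, read 39113, 44353, 48750 and 40610. Pvalb, the cytosolic calcium buffer parvalbumin, read 11808, 21041, 19609 and 19043, lowest on replicate 7. Casq1, the fast calsequestrin that stores calcium in the reticulum, read 8506, 11349, 9829 and 10174. The 16 genes of the fast calcium list were all kept, with a mean log2 level of 11.74 and an SD of 0.19. None was highest on replicate 7 (23% of all kept genes), 9 were highest on replicate 8 (20.8%) and 6 on replicate 9 (25.6%). In the top of 10 bins by level the shares highest on replicates 8 and 9 were 28.1% and 30.4%. The mean deviations were -0.19, 0.15, 0.16 and -0.12, a small range in which 13 of the 16 genes had replicates 8 and 9 above the other 2 arrays, as did 20.2% of all kept genes. Ryr1, the calcium release channel, was chosen after its values were seen and read 2314, 2665, 2816 and 1490.

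The slow calcium list held 6 measured genes, with mean deviations of 1.00, -0.73, -0.71 and 0.44. Atp2a2, which encodes the slow and cardiac pump SERCA2, read 4781, 548, 474 and 2500. Casq2, the slow and cardiac calsequestrin, read 725, 150, 121 and 739, and Sln, sarcolipin, a small inhibitor of the pump, 267, 33.2, 79.0 and 236. Replicates 7 and 11 were above the other 2 arrays for all 3. Pln, phospholamban, another pump inhibitor, read 197, 116, 119 and 114, where only replicate 7 was raised. Ppp3ca, a catalytic subunit of the phosphatase calcineurin, read 3333, 4236, 3308 and 2722 and did not follow the list. Rcan1, a calcineurin regulator, read 735, 212, 180 and 309.

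The mean level of the glycolysis list, 12.19 over 15 kept genes, differed least between arrays among the 30 lists of muscle classes with at least 5 kept genes. Its SD was 0.035, and 0.019 without replicate 8, although members moved in different directions. In 10 of the 15 replicates 8 and 9 were above the other 2 arrays, against 20.2% of kept genes. Of the 15, 10 were lowest on replicate 7, as were 22.9% of all kept genes and 28.1% of those in the top of 10 bins by level. The median log2 SD of single members was 0.19. Aldoa, muscle aldolase, read 52688, 54767, 58377 and 65134, and Eno3, muscle enolase, 35307, 41262, 39935 and 39017. Pfkm, the muscle phosphofructokinase that sets the pace of glycolysis, read 15634, 17274, 14386 and 11319. Lactate dehydrogenase showed a contrast between its subunits: Ldha, the M subunit of fast muscle, read 17446, 21956, 22473 and 18581, and Ldhb, the H subunit of oxidative tissue, 3942, 849, 600 and 3286. The log2 SD was 0.18 for Ldha and 1.36 for Ldhb, and Ldhb had the same 2 high arrays as the slow contractile genes.

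High-energy phosphate transfer was led by Ckm, the cytosolic muscle creatine kinase, at 47711, 62958, 63514 and 53537. Ckmt2, the mitochondrial creatine kinase of muscle, read 36777, 34522, 26387 and 37846, and Slc25a4, the adenine nucleotide carrier, 37961, 40276, 40139 and 44790. Ampd1, the muscle AMP deaminase, read 8346, 13169, 14535 and 10703. For Ckm and Ampd1 replicates 8 and 9 were the high arrays, and for Ckmt2 replicate 9 was the low one. The 11 kept genes of this list had a mean log2 level of 12.28 with an SD of 0.12.

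Glycogen genes leaned to replicates 8 and 9, with mean deviations of -0.05, 0.14, 0.13 and -0.22 over 12 kept genes. The SD of 0.17 was 0.109 without replicate 11. Pygm, the muscle phosphorylase that breaks glycogen down, read 9338, 11845, 13436 and 8531. Pgm1, phosphoglucomutase, read 5823, 7924, 9003 and 5414, and Phka1, a regulatory subunit of muscle phosphorylase kinase, 2329, 3955, 3465 and 2148. Gyg1, glycogenin, the primer of glycogen synthesis, was even at 5596, 5819, 6418 and 5465. Of the 12 genes, 7 were lowest on replicate 11, as were 27% of all kept genes and 37.3% of those in the top of 10 bins by level.

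Mitochondrial lists differed most on replicate 9. Of 30 kept genes for respiratory chain complexes III to V, 28 were lowest on replicate 9, where 28.2% of all kept genes were lowest, and 23 were highest on replicate 11, where 30.6% were highest. Mean deviations were 0.09, 0.00, -0.25 and 0.16, with a mean log2 level of 13.25. The SD of 0.18 was 0.082 without replicate 9. Centring the arrays on their medians turned the deviation on replicate 11 to -0.026 while the deviation on replicate 9 stayed between -0.27 and -0.19 over the 8 other settings tried. Atp5f1c, a subunit of ATP synthase, read 26045, 24282, 19091 and 28829, and Cox6a2, the muscle form of a cytochrome oxidase subunit, 25405, 26164, 22474 and 30386. Replicate 9 was lowest and replicate 11 highest for both.

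Complex I followed, with 23 of its 28 kept genes lowest on replicate 9 (28.2% of all kept genes) and mean deviations of 0.06, 0.06, -0.23 and 0.11. Its SD of 0.16 was 0.03 without replicate 9, and median centring turned the value on replicate 11 to -0.077. Ndufb9 read 19490, 19018, 15231 and 23974, and Ndufb5 14194, 13203, 10211 and 15795. Both encode accessory subunits of the complex. In the tricarboxylic acid cycle 12 of 17 kept genes were lowest on replicate 9 (28.2% of all kept genes) and 12 were highest on replicate 7 (23%). Idh2, the mitochondrial NADP-linked isocitrate dehydrogenase, read 16195, 11408, 9845 and 13774. Sdhb, the iron-sulphur subunit of succinate dehydrogenase, read 11507, 9412, 8565 and 10998.

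Fatty acid genes combined both patterns, being low on replicate 9 and high on replicates 7 and 11. Of the 26 kept genes, 23 were lowest on replicate 9 (28.2% of all kept genes) and 18 were highest on replicate 7 (23%). In 20 both replicates 7 and 11 were above the other 2 arrays, a pattern of 22.4% of kept genes. The mean deviations were 0.27, -0.11, -0.40 and 0.23. Fabp3, the fatty acid carrier of muscle and heart, read 13481, 7568, 6742 and 16265. Lpl, lipoprotein lipase, was named after its values were seen and read 5466, 2200, 1629 and 4958. Pdk4, the kinase that shuts off pyruvate oxidation in fasting, read 5748, 6463, 2167 and 10693, with a log2 SD of 0.96, the widest of the list. Hadhb, a subunit of the trifunctional protein of beta-oxidation, was nearly even at 10230, 9338, 8445 and 9126.

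Mb, the oxygen-binding protein myoglobin, read 30109, 27305, 24238 and 26044, a log2 SD of 0.13. Car3, a carbonic anhydrase abundant in slow muscle, read 19257, 17714, 16632 and 19396. Both varied far less than the slow contractile genes. The mean level of 16 kept cytosolic ribosomal protein genes had an SD of 0.054, and the median log2 SD of its single members was 0.12.

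Nerve transcripts were dim and varied widely. Of 18 measured genes of the Schwann cell and nerve list, 11 passed the level filter, with a mean log2 level of 6.03 and an SD of 0.88. In 9 of those 11 both replicates 7 and 11 were above replicates 8 and 9, a pattern of 22.4% of kept genes. The filter used the mean over these same arrays, so a dim gene could pass only through the arrays where it was high. This count is therefore a description and no test, as are those of other dim lists. Without the filter the SD of the list was 0.53, and the signs of its deviations held under all 8 settings. The mean deviations were 0.73, -0.64, -0.87 and 0.78. Pmp22, a protein of compact peripheral myelin that fibroblasts also make, read 2537, 271, 388 and 1916. Mbp, myelin basic protein, read 387, 32.0, 6.94 and 113, and Cnp, a myelin-associated phosphodiesterase, 162, 77.8, 74.9 and 155. Mag, Sox10, Ngfr, Nefm, Nefh, Stmn2 and Uchl1 were under the filter, so the list rests, apart from Pmp22, on genes near the lower end of the scale. Ncam1, the neural cell adhesion molecule, which muscle also makes, was dim as well, at 64.4, 5.79, 8.18 and 120.

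The neuromuscular junction list had 10 kept genes and mean deviations of 0.43, -0.48, -0.25 and 0.31. Chrna1, the alpha subunit of the acetylcholine receptor, read 179, 22.4, 25.7 and 354. Chrnb1, the beta subunit, did not vary that way and read 280, 302, 275 and 184. Rapsn, which clusters the receptor under the nerve ending, was even at 129, 134, 147 and 122. Dok7, an activator of the receptor kinase MuSK, read 366, 140, 268 and 246. The members thus did not share 1 order of arrays, and only 3 of the 10 had replicates 7 and 11 on top, against 22.4% of all kept genes.

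Vessel transcripts varied less. The 18 kept endothelial genes had a mean log2 level of 7.63, an SD of 0.32 that was 0.174 without replicate 9, and mean deviations of 0.11, -0.01, -0.43 and 0.34. Of these genes, 12 were lowest on replicate 9 (28.2% of all kept genes) and 11 were highest on replicate 11 (30.6%). Pecam1, the endothelial junction protein CD31, read 115, 74.4, 75.7 and 164. Emcn, endomucin of capillaries and veins, read 396, 358, 340 and 644, and Kdr, the main receptor of VEGF, 338, 311, 213 and 319. Cav1, the caveolin of endothelium and fat, read 2280, 1924, 1340 and 2787. Replicate 9 was lowest for 3 of these 4 genes.

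Smooth muscle and mural genes had 14 kept members and mean deviations of 0.17, -0.20, -0.26 and 0.29. Myh11, the smooth muscle myosin heavy chain, read 618, 306, 309 and 297, high only on replicate 7. Acta2, smooth muscle actin, read 326, 289, 293 and 490, high only on replicate 11, as was the pericyte gene Rgs5 at 769, 823, 527 and 1272. Over the list, 8 of the 14 were highest on replicate 11 (30.6% of all kept genes). Hbb, a haemoglobin chain whose RNA comes from blood, read 8929, 8229, 4114 and 12760, with replicate 9 lowest and replicate 11 highest as in the endothelial list. Its part in the vessel values was not tested.

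Connective tissue transcripts had replicate 11 at the top and replicate 8 at the bottom. Of 30 kept genes of the collagen and matrix list, 23 were highest on replicate 11 (30.6% of all kept genes) and 23 were lowest on replicate 8 (21.9%). Mean deviations were -0.09, -0.83, -0.02 and 0.93, with a mean log2 level of 8.25. The SD of 0.72 was 0.474 without replicate 11. Col3a1, the chain of reticular type III collagen, read 2509, 1141, 2884 and 10546. Col1a2, a chain of type I collagen, read 732, 548, 2226 and 2951, and Col1a1, its partner chain, 345, 406, 1618 and 1475. For both type I chains, replicates 9 and 11 were above the other 2 arrays. Dcn, the proteoglycan decorin, read 2705, 628, 1791 and 4346, and Lum, the related lumican, 373, 30.0, 954 and 1450. Timp3, an inhibitor of matrix proteases, was even at 924, 763, 892 and 798. Of 17 other probe sets for genes of this list, 13 were highest on the same array as the brightest one (76.5%), against the 35.7% over all kept genes.

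Tendon genes were highest on another array. Of 5 kept genes 4 were highest on replicate 9, where 25.6% of all kept genes were highest, and the mean deviations were -1.03, 0.00, 1.18 and -0.15. Thbs4, a thrombospondin of tendon, read 289, 381, 1443 and 431, and Fmod, fibromodulin, 32.8, 176, 435 and 140. Chad, chondroadherin, read 15.6, 19.4, 127 and 16.3, and Tnmd, the tendon cell marker tenomodulin, 11.04, 67.0, 73.9 and 68.4. Scx, a transcription factor of tendon cells, did not share this order and read 219, 206, 214 and 151. Comp was under the filter. The type I collagen chains, which tendon also makes, were high on replicate 9 as well, and how far tendon tissue entered them was not tested.

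Fibroblast markers resembled the matrix list. Their 9 kept genes had mean deviations of -0.13, -0.48, 0.00 and 0.62, and 6 were highest on replicate 11 (30.6% of all kept genes). Their SD of 0.46 was 0.248 without replicate 11 and 0.872 without replicate 9. Pdgfra, the receptor that marks fibro-adipogenic progenitors, read 192, 11.2, 8.54 and 276. Dpt, dermatopontin, read 539, 347, 443 and 1074, and Mfap5, a microfibril protein, 372, 121, 256 and 608. Replicates 7 and 11 were the 2 high arrays for these genes and for 4 of the 9 in all (22.4% of all kept genes). For 3 of the 9 the 2 high arrays were replicates 8 and 9 (20.2%). Gsn, the actin-severing gelsolin, read 2248, 1122, 2162 and 2777, and Serpinf1, a secreted serpin, 364, 152, 408 and 664, both highest on replicate 11 and lowest on replicate 8.

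Macrophage and antigen-presenting genes were also highest on replicate 11 in 12 of 15 kept genes, where 30.6% of all kept genes were highest and 40.3% of genes in the fourth of 10 bins by level. The list had mean deviations of 0.03, -0.77, -0.22 and 0.96. The SD of 0.73 was 0.429 without replicate 11. RT1-Da, a class II histocompatibility chain, read 178, 96.2, 218 and 767, and Cd74, its invariant chain, 375, 241, 232 and 745. Mrc1, the mannose receptor of resident macrophages, read 212, 34.0, 113 and 423. Ptprc, the general leukocyte marker CD45, was under the filter, as were 10 of 11 measured lymphocyte and mast cell genes. The remaining one, the mast cell carboxypeptidase Cpa3, read 45.4, 58.7, 30.4 and 310.

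Fat left a weak trace. Of 11 measured adipocyte genes 6 were kept, and Lep, Plin1, Cidec, Scd and Pparg were under the filter. Adipoq, adiponectin, read 36.6, 2.66, 59.7 and 46.4, near the lower end of the scale. Cfd, adipsin, read 133, 5.83, 41.7 and 260. Both were lowest on replicate 8, the array on which 3 of the 6 and 21.9% of all kept genes were lowest. The mean deviations were -0.07, -0.74, 0.23 and 0.58.

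**Figure D3:**
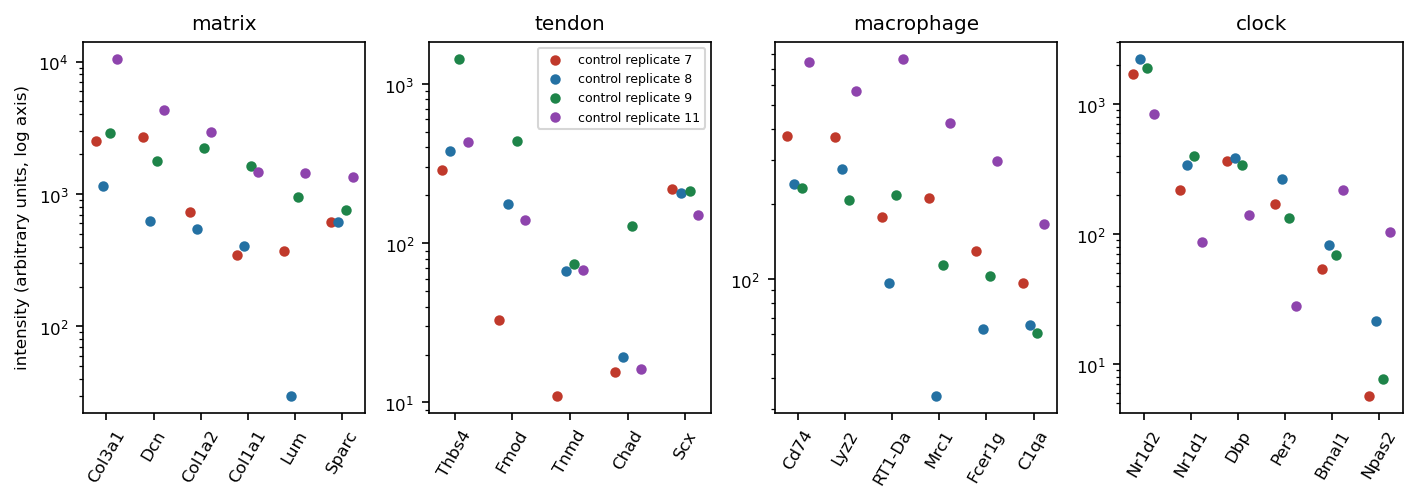
Intensity on each control array (log axis, arbitrary units) of matrix, tendon, macrophage and clock genes, 1 coloured point per rat. Replicate 11 is highest for the 6 macrophage genes and for 5 of the 6 matrix genes, replicate 9 leads for 4 of the 5 tendon genes, and replicate 11 is lowest for Nr1d2, Nr1d1, Dbp and Per3 but highest for Bmal1 and Npas2.

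Many circadian clock genes were lowest on replicate 11. Of 14 kept genes, 8 were lowest on that array (27% of all kept genes) and 2, Bmal1 and Cry2, were highest (30.6%), with mean deviations of 0.01, 0.39, 0.04 and -0.43. The SD of 0.34 was 0.214 without replicate 11. Nr1d2, a nuclear receptor that represses Bmal1, read 1717, 2254, 1920 and 838, and Dbp, an output factor of the clock, 367, 387, 339 and 141. Bhlhe41, another repressor, read 748, 1101, 683 and 296. The positive limb of the clock did not share 1 order. Clock read 335, 403, 358 and 262, lowest on replicate 11. Its partner Bmal1 read 53.5, 83.1, 68.8 and 218, and the related Npas2, which stayed under the filter, 5.69, 21.5, 7.70 and 104, both highest there. The repressor Cry2 differed little, at 189, 205, 181 and 209. Nr1d1 and Per3, which like Bmal1, Npas2 and Cry2 were chosen after their values were seen, read 218, 339, 402 and 87.5, and 171, 266, 133 and 28.1. The other probe sets of clock genes seldom shared the leading array, in 1 of 7 cases. The labels used here give no time of day for any rat.

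Immediate-early genes, which rise within minutes of stimulation, had mean deviations of 0.49, -0.60, -0.11 and 0.21 over 12 kept genes, with an SD of 0.47 that was 0.3 without replicate 8. Jund read 2278, 963, 937 and 2193, and Dusp1, a MAP kinase phosphatase, 1059, 590, 514 and 1189, both with replicates 7 and 11 high. Jun read 1205, 776, 553 and 829. Fosb, Fosl2, Egr2, Egr3 and Myc were under the filter.

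The myogenic list was even, with an SD of 0.095 over 10 kept genes. Myf6, the myogenic factor of mature fibres, read 2052, 1849, 1345 and 2072. Myod1, a factor reported at higher levels in fast muscle, read 495, 857, 883 and 436, higher on replicates 8 and 9 than on the other 2 arrays. Mef2c, a partner of the myogenic factors, read 4634, 6496, 7083 and 5024, with the same 2 arrays on top.

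The labelled tissue was also checked against genes it should lack. Of 31 measured genes of other tissues, 8 passed the filter, the median of their means was 19.7, and the highest single value was 172, for the pancreatic Cpa1. Among developmental and cardiac contractile genes Myh3, Myh6, Myl7, Tnni3, Tnnt2 and Nppa were under the filter. Myh8, the neonatal myosin heavy chain, was kept at 32.1, 124, 110 and 60.7. Myh13, the heavy chain of extraocular muscle, was chosen after its values were seen and was under the filter at 13.04, 13.8, 7.73 and 29.1. The limb position genes Hoxa10 and Hoxa9 were kept, Hoxa10 evenly at 371, 425, 379 and 369, while Pitx1, Tbx4 and Tbx5 were under the filter.

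Spread between rats fell as level rose. Over all kept genes the median log2 SD was 0.37. When the genes were cut by level into 10 equal bins, it was 1.09 in the lowest bin, with a median intensity of 36.5, and 0.19 in the highest, at 2247. A log2 SD of 1 or more was seen in 1117 kept genes (11%), of 2 or more in 21 and of 3 or more in 3, namely Xist, Tnnt1 and Myh7. Mbp and Cfd lie in the third of these bins by level, where the median log2 SD was 0.57 and the 90th percentile 1.07. Their own log2 SDs were 2.23 and 2.10. With 1 array per rat, scatter of the reading and difference between rats cannot be told apart.

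Among genes above the 60th percentile of level, the 15 widest were Tnnt1, Myh7, Lum, Tnnc1, Tnni1, Eif2s3y, Mbp, Apod, Angptl4, Myl2, Myoz2, Cfd, Hba-a3, Sfrp4 and Omd. Of these 9 were highest on replicate 7 (23% of all kept genes), 5 on replicate 11 (30.6%) and 1 on replicate 9 (25.6%). The last, Omd, had an SD of 1.94 and the next gene, Anapc7, 1.91. Apod, apolipoprotein D, which nerve and fibroblasts make, read 517, 47.6, 11.3 and 142. Angptl4, a fasting-induced inhibitor of lipoprotein lipase, read 65.3, 68.0, 9.14 and 487, with the same lowest and highest arrays as Pdk4. Sfrp4, a secreted Wnt antagonist, read 76.1, 6.45, 205 and 140, and Omd, osteomodulin, 86.7, 5.64, 128 and 175, both lowest on replicate 8. Hba-a3, a haemoglobin alpha gene, read 47.3, 209, 16.6 and 458.

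**Figure D4:**
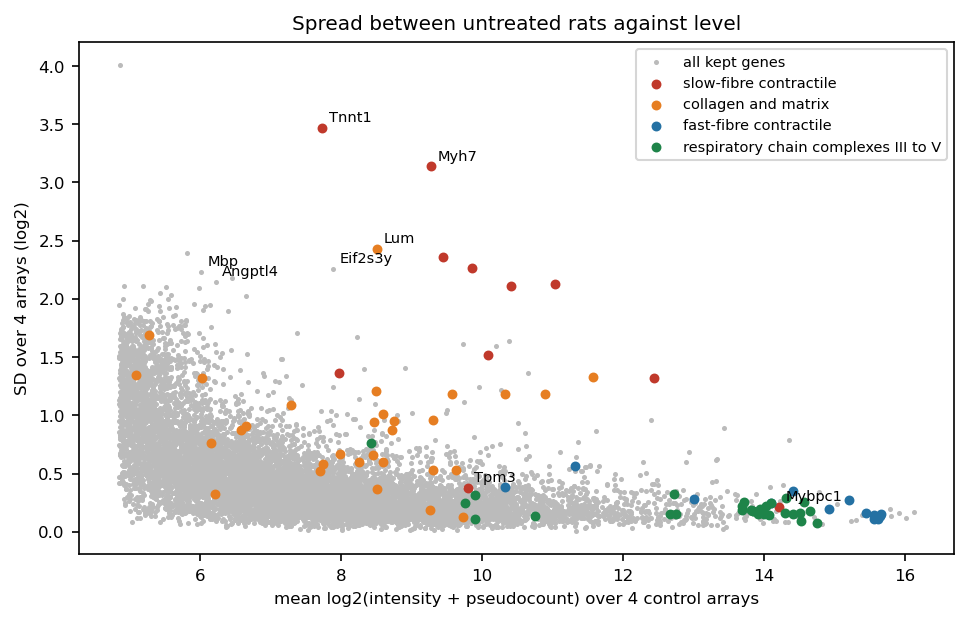
Log2 SD over the 4 control arrays against mean log2 level for all 10192 kept genes (grey), with 4 lists coloured. The grey cloud falls from left to right; most slow-fibre genes lie far above it, Tnnt1 and Myh7 at over 3, while fast contractile genes and complexes III to V lie at the lower right.

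Set side by side, the classes fell into several orders over the arrays. Among the 30 lists of muscle classes with at least 5 kept genes the highest array was replicate 7 for 9 lists, 8 for 5, 9 for 5 and 11 for 11, and the lowest was 7 for 8 lists, 8 for 10, 9 for 10 and 11 for 2. Slow contractile, slow calcium, nerve, junction, smooth muscle, immediate-early and fatty acid lists were above 0 on replicates 7 and 11 and below 0 on replicates 8 and 9, except that centring on array medians turned the fatty acid list on replicate 8 from -0.11 to 0.012. For the junction list this held for the mean and not for most members. Its median deviation on replicate 8 was 0.044, and 3 of its 10 genes had replicates 7 and 11 on top (22.4% of all kept genes). Endothelial, macrophage, oxygen and redox, and heat shock lists were likewise above 0 on replicates 7 and 11 and below 0 on 8 and 9. Each of these had a sign that changed under some setting, so this order is not particular to fibre-type lists. Fast contractile and fast calcium lists were below 0 on replicates 7 and 11 and above 0 on the other 2, within 0.19 log2 units, and the signs of these 2 lists held under all 8 settings tried. The glycogen list had the same signs, as did the cytosolic ribosomal protein and myogenic lists, whose sign on replicate 11 changed under some settings. All kept genes in the top of 10 bins by level had median deviations of -0.028, 0.077, 0.022 and -0.055, with these signs too. Their mean deviations were -0.008, 0.056, -0.001 and -0.047. How often replicates 8 and 9 were on top was not counted by level. On replicate 11 the fast contractile sign was that of the mean only. Its median deviation there was 0.023, with 4 of 13 members highest and 4 lowest on that array. Replicates 8 and 9 were above the other 2 arrays in 5 of those 13 (38.5%), against 20.2% of all kept genes. Collagen, fibroblast, macrophage and adipocyte lists ran from replicate 8 as the lowest to replicate 11 as the highest, endothelial genes and complexes I and III to V from replicate 9 to replicate 11, and tendon from replicate 7 to replicate 9. With 4 arrays no correlation between classes was computed.

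The first principal component over the arrays held 41.1% of the variance and placed replicate 11 at 75.3 and replicate 9 at -60.4, the other 2 holding 31.5% and 27.4%. Replicate 11 also had the highest median intensity, the highest beta-actin 3′ over 5′ ratio and the female pattern of Xist, and their part in the order of the matrix, macrophage and clock lists was not tested. Genes of the fourth of 10 bins by level were highest on replicate 11 in 40.3% of cases and those of the top bin in 19.7%, so counts for dim lists are set against a higher share on that array.

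**Figure D5:**
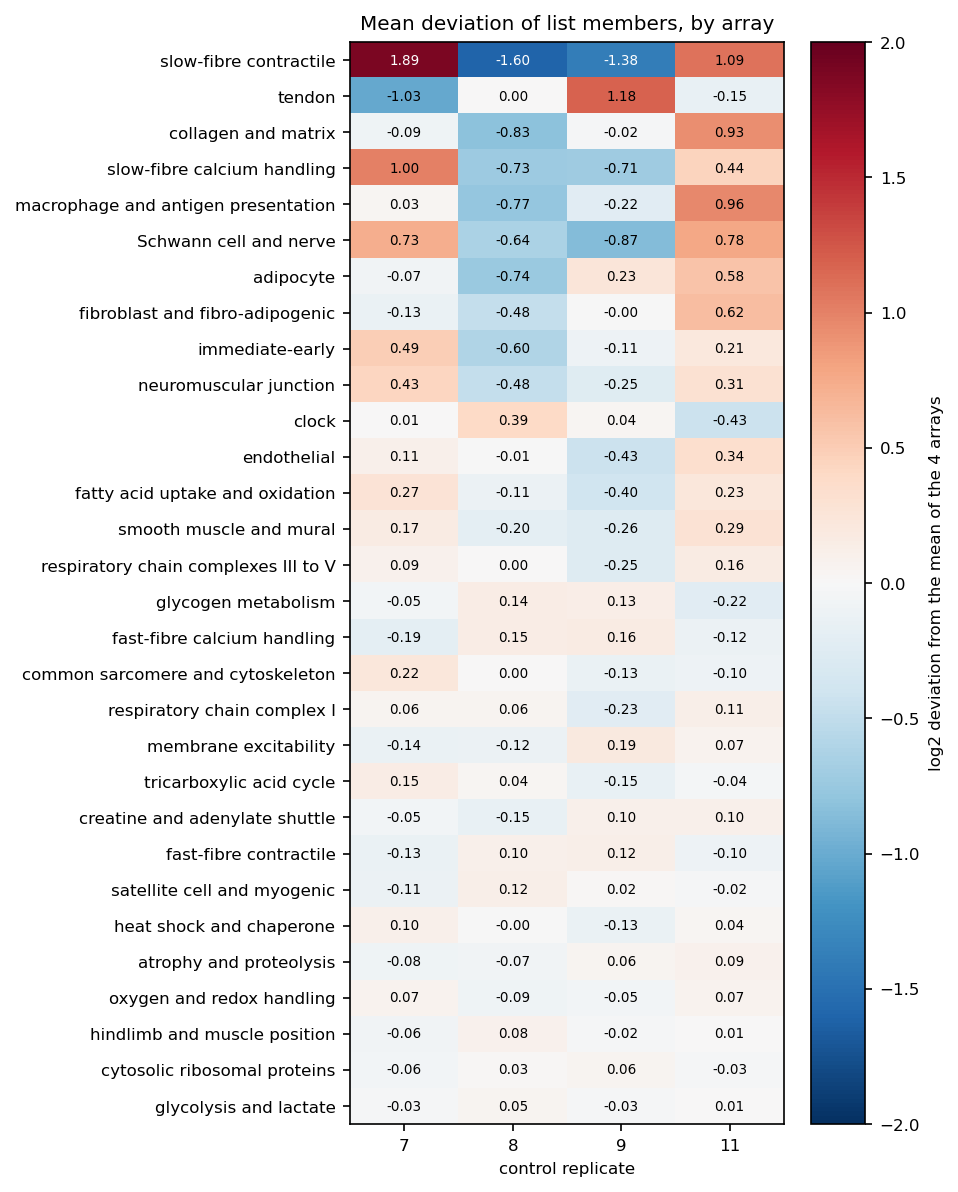
Mean deviation of the kept members of 30 gene lists from their own 4-array means (log2 units, colour and printed value), by control replicate. Rows run from the widest list, slow-fibre contractile at 1.89 to -1.60, down to glycolysis, where all 4 values are within 0.05.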

How the data were processed

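Biotin-labelled complementary RNA made from oligo(dT)-primed cDNA was hybridized to 1 array per rat, per the labels' protocols. The deposited values are linear-scale intensities. Affymetrix GCOS appears in the submitters' processing notes, while its settings, background correction and detection calls are not given in the labels used. The mean of 150 after trimming 2% at each end fits scaling of each array to 1 target, which removes differences in total RNA.

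Of 31099 probe sets, 57 were controls, 20826 had 1 gene symbol, 436 several and 9780 none. RefSeq (GRCr8) held 20758 of the 20826 by Entrez number. The deposited intensities were turned to log2 after adding a pseudocount of 3.67, which is the 10th percentile over the 4 arrays, and genes were kept above the 40th percentile of mean log2 level, 4.85. This left 10192 of 14217 genes, each represented by its brightest one-symbol probe set. List deviations are means over kept members of log2 value minus the 4-array mean of the gene. No test between groups was made, and Dixon's criterion for a value far from the others served only to list items in the closing section. The calculation of list deviations was tested on simulated data, and that of spreads was not. Python 3.11.15, pandas 2.3.3, numpy 2.4.6 and matplotlib 3.10.9 were used.

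Members of the lists, and the tests and lists themselves, were chosen with earlier results of these data known. Named genes were the 20 brightest, up to 6 brightest members of each of 35 lists, the 15 with the widest log2 SD above the 60th percentile of level, and fixed fibre-type, tissue and sex markers. Genes outside that rule are marked as chosen once values were known, apart from those named only as under the filter, without a probe set or next in an order. The alternatives tried were normalization by quantiles, median centring of arrays, a pseudocount at the 25th percentile (13.2), a floor of 1.60 without pseudocount, no level filter, a stricter one at the 60th percentile, averaging the probe sets of each gene, probe sets without the suffixes of shared transcripts, and each array left out. The 4 hyperthyroid arrays were left out because only untreated muscle is described. The number of arrays limits the precision.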

Additional observations from a re-analysis of the deposited data

Results flagged for a closer look

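In groups of 4 arrays a value counts as standing apart when its gap to the next, over the whole range on the log2 scale, passes Dixon's critical value at 95%. Of 198 items examined (161 genes named in the text, 31 lists and 6 technical measures), 14 passed, and chance passes about 1 in 20. Replicate 11 stood apart as the highest for Xist at 1856 and as the lowest for Eif2s3y at 19.5, Dbp at 141, Scx at 151, Tcap at 19898, Anapc7 at 5.48 and Tbx5 at 3.44. The last of these was under the level filter. Replicate 7 stood apart as the highest for Myh11 at 618 and Pln at 197, and as the lowest for Tnnt3 at 43309 and Tnmd at 11.04. Replicate 9 was the highest for Chad at 127 and the lowest for the mean deviation of the complex I list at -0.23. Replicate 8 was the lowest for Tpm3 at 598. None of the slow genes Myh7, Tnnt1, Tnnc1 and Tnni1 was among them, because 2 arrays were high and 2 low.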

How the results depend on the processing

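No paired analysis was possible because there was 1 group and no comparison between groups. Of the 20 brightest genes, 18 to 20 stayed among the 20 brightest under each setting. The fast contractile level of 14.37 was 13.36 when the probe sets of each gene were averaged and 13.83 without shared-transcript probe sets, and its spread of 0.13 was 0.231 with median centring. The nerve level of 6.03 was 4.96 without the level filter and 6.93 with a stricter one at the 60th percentile, and its spread of 0.88 was 0.53 with no filter. The tendon level of 6.89 was 7.93 with the higher filter. The clock level of 7.86 was 7.02 and its spread of 0.34 was 0.219 with averaged probe sets. The number of kept genes with a log2 SD of 1 or more, 1117, was 566 with the pseudocount at the 25th percentile, 3716 with no filter and 160 with the higher filter. The 100 brightest probe sets held 34.8% when probe sets were averaged, against 29.1%. With each array left out in turn, the collagen spread ran from 0.474 to 0.887 and the clock spread from 0.214 to 0.413. The cause of these shifts was not tested, beyond the fewer or more genes that a filter leaves. Of the main results, 204 values kept their size within the spread between arrays and 13 moved under alternatives other than leaving out an array. For single list values and genes these counts were 1661 and 135. Of 120 list deviations by array, 35 changed sign under at least 1 setting, and the size of each of these was at most 0.23 log2 units. Dim lists, with levels near the filter, are the ones whose values depend most on it.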
